A study of Homo sapiens with 8 samples.

Results

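The ribosome biogenesis and RNA polymerase I genes described here are 64 genes, of 14668 in the count table. They were chosen by symbol, with earlier results of these data known. They cover the subunits of RNA polymerase I, the proteins of small nucleolar ribonucleoproteins (snoRNPs), factors that build the 40S and 60S ribosomal subunits, and the nucleolar chaperones nucleolin and nucleophosmin. The cells were T3M4, an established human pancreatic cancer line. One arm carried a guide RNA that targets METTL13 (sgMETTL13), and the other a non-targeting guide (sgControl). METTL13 methylates the translation elongation factor eEF1A. Both arms were starved of serum for 18 h and lysed 2 h after 10% FBS had been added. Poly(A) RNA-seq measured mRNA, and ribosome profiling measured the mRNA fragments protected by ribosomes (footprints), with 2 libraries per arm and assay and 8 in all. The labels give neither whether the cells were clones or pools nor the source of the replicates, and the spread behind each p-value may therefore be technical.

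Ribosome production starts in the nucleolus, where RNA polymerase I transcribes a long precursor of the 18S, 5.8S and 28S ribosomal RNAs. Box C/D and box H/ACA snoRNPs guide the methylation and pseudouridylation of that precursor, the small subunit processome folds and cuts its 18S part, and separate sets of factors mature the 40S and 60S particles on the way to the cytoplasm. The pathway is known as a large consumer of the growing cell's energy, and many of its genes are known targets of the transcription factor MYC, which binds the E-box CACGTG.

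Footprint libraries held 9837253 and 8916807 counts in sgMETTL13 and 8181707 and 6063885 counts in sgControl, and RNA libraries held 20860953 to 48353722 counts. METTL13 itself had 20.1 and 26.2 CPM of footprints in sgMETTL13, against 65.2 and 57.8 CPM in sgControl (log2 fold change -1.41, edgeR adjusted p = 6.38e-07). Summed over 5 epithelial markers, the RNA level was 2775 to 4152 CPM in sgMETTL13 and 3654 to 4091 CPM in sgControl. The sums over the 4 fibroblast and 3 leukocyte markers measured lay between 18.5 and 49.0 CPM in the same libraries. The sgMETTL13 RNA libraries stood apart from each other. Of 63 ribosome biogenesis genes, 16 were over 1.5-fold higher in sgMETTL13 RNA replicate 1 than in replicate 2 and 13 were over 1.5-fold lower, whereas 2 genes differed by that much between the sgControl RNA replicates.

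The ribosome biogenesis genes took 2.13% and 2.06% of all footprints in the sgMETTL13 libraries, against 2.26% and 2.40% in the sgControl libraries. Nucleolin alone supplied 0.863% and 0.812% in sgMETTL13 and 0.903% and 0.993% in sgControl. In RNA-seq the same genes took 0.908% and 0.823% of the counts in sgMETTL13 and 0.884% and 0.800% in sgControl.

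The promoter sequences are shown first because the choice by symbol did not use them, and because some of these genes hold an E-box close to their start. RefSeq promoter windows (GRCh38.p14, from 250 bases before to 50 bases after the annotated start) were matched for 56 of the 64 genes. The letters CACGTG, which read the same on both strands and were the sole motif searched, occurred in 22 of these windows (39.29%). They occurred in 947 of 8880 windows of genes tested in footprints (10.66%) and in 2548 of 35116 windows of the whole table (7.26%). The following windows, 5′ to 3′ on the strand of the gene, carry the motif in capitals near the start, and were picked to cover the steps of the pathway and each outcome of the footprint test.
POLR1G (chr19:45406620-45406649, plus strand): cccctttggatcCACGTGgtctgcaacctg
RRP9 (chr3:51941892-51941921, minus strand): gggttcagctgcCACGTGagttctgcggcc
PES1 (chr22:30591880-30591909, minus strand): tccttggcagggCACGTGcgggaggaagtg
BYSL (chr6:41921515-41921544, plus strand): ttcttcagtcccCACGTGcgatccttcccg
NOP10 (chr15:34343130-34343159, minus strand): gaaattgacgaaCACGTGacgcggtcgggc
FBL (chr19:39846356-39846385, minus strand): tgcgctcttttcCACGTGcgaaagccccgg
UTP20 (chr12:101280083-101280112, plus strand): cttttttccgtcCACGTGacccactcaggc
TSR2 (chrX:54440389-54440418, plus strand): ccgccgggacgtCACGTGgactggggccgg
In POLR1G, RRP9, PES1 and BYSL footprints were lower in sgMETTL13, in NOP10 they were higher, and FBL, UTP20 and TSR2 did not pass the test.

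Of the 26 E-boxes in the 56 windows, 19 (73.08%) began between 20 bases before and 40 bases after the start, against 236 of 1075 E-boxes (21.95%) in the windows of genes tested in footprints. That range was chosen after the places had been seen. The E-box was in 5 of 12 windows of genes with lower footprints, in 1 of 7 windows of genes with higher footprints and in 16 of 37 windows of genes that did not pass, with no test of these shares. A match of letters is a description and does not show that a factor binds there.

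**Figure D1:**
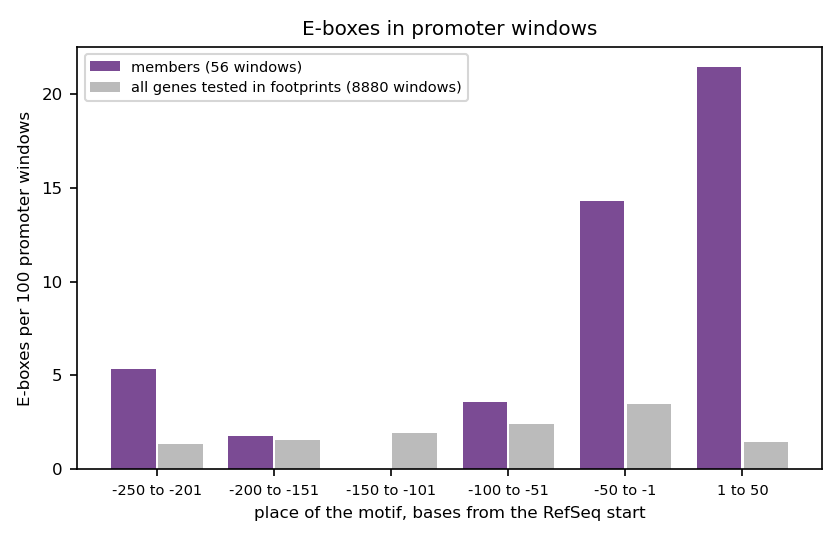
E-boxes (CACGTG) per 100 promoter windows, by distance in bases from the RefSeq start, for the 56 ribosome biogenesis windows and for 8880 windows of genes tested in footprints. The bin of bases 1 to 50 holds 21.43 E-boxes per 100 windows of the ribosome biogenesis genes and 1.42 per 100 of all tested genes.

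In sgMETTL13 cells footprints were lower in 17 of the 64 genes and higher in 7, while 40 did not pass the test (edgeR quasi-likelihood F test, Benjamini-Hochberg adjusted p below 0.05 over 10714 genes). The 17 lower genes were 26.6% of the set, where 12.0% of all tested genes were lower. The 7 higher genes were 10.9%, where 8.94% of all tested genes were higher. Among genes averaging at least 50 CPM, 14 of 55 ribosome biogenesis genes were lower (25.5%, background 16.6%) and 6 were higher (10.9%, background 12.7%). The shares by role below are set against all tested genes, not against genes of this level. In the small roles 1 call moves the share strongly. The median log2 fold change was -0.15 for the 64 genes and 0.01 for all tested genes, and 45 of the 64 values were negative. The values ran from -0.86 for BOP1 to 0.80 for NPM1. Levels are TMM-normalised CPM (counts scaled to a common library size), which are shares of a library. In bulk lysates, fewer cells that express a gene and less of its RNA per cell cannot be told apart.

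The individual libraries set how firm these counts are. Both sgMETTL13 libraries lay below both sgControl libraries in 36 of 64 genes (56.2%), and above both in 14 genes (21.9%), where 32.0% of all tested genes did so in each direction. Without sgMETTL13 replicate 2, 5 genes were lower and 1 was higher, and without sgControl replicate 2, 7 were lower and 2 were higher. Without sgControl replicate 1, 22 were lower and 9 were higher, and without sgMETTL13 replicate 1, 13 were lower and 6 were higher. The calls over all genes moved the same way, at 701 without sgMETTL13 replicate 2, 824 without sgControl replicate 2, 3018 without sgControl replicate 1 and 1612 without sgMETTL13 replicate 1, against 2245 with all 4 libraries. The genes lower whichever library was left out were BOP1, RRS1, RRP1, GRWD1 and POLR1D, and NPM1 was higher in every such fit. In one model of all 8 libraries, which shares its spread with the RNA libraries, 0 of the 64 genes were lower and 0 higher.

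**Figure D2:**
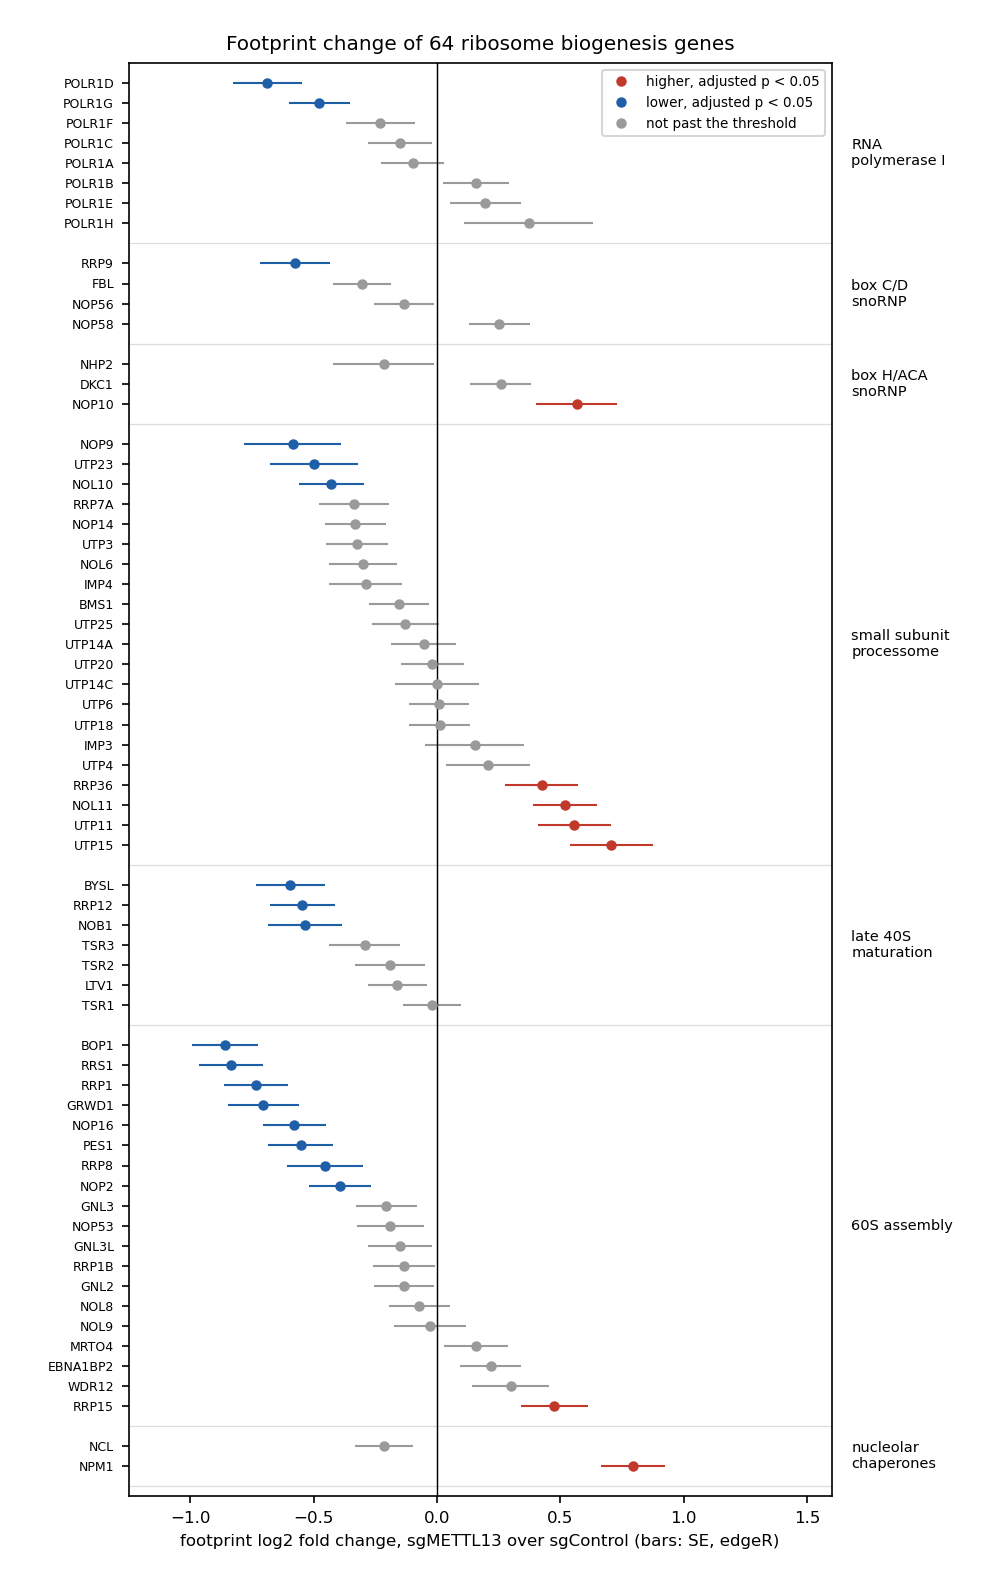
Footprint log2 fold change, sgMETTL13 over sgControl, of the 64 genes grouped by role, with bars for the standard error from edgeR. Blue points are the 17 genes lower and red points the 7 genes higher at an adjusted p below 0.05, and all 7 genes of late 40S maturation lie left of 0.

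RNA polymerase I held 2 lower genes of 8 (25%, background 12.0%) and none higher (0%, background 8.94%), with a median log2 fold change of -0.12. POLR1D, a small subunit that RNA polymerases I and III share (chr13:27620743-27667411), had 101 and 93.5 CPM in sgMETTL13, against 138 and 175 CPM in sgControl. Both sgMETTL13 libraries were below both sgControl libraries, and the log2 fold change was -0.69 (SE 0.139, edgeR adjusted p = 0.000841). POLR1G, part of the heterodimer that helps the polymerase initiate and elongate (chr19:45406644-45410737), had 282 and 292 CPM in sgMETTL13, against 373 and 427 CPM in sgControl (log2 fold change -0.48, SE 0.123, adjusted p = 0.00641). The POLR1G call was lost without sgMETTL13 replicate 1 (adjusted p = 0.081), without sgMETTL13 replicate 2 (0.0827) and without sgControl replicate 2 (0.068).

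The other subunits, among them POLR1A and POLR1B of the catalytic core, did not pass the test in footprints. POLR1A, the largest subunit, had a log2 fold change of -0.10, and POLR1B, the second largest, one of 0.16. POLR1C, which pairs with POLR1D in the assembly platform, stood at -0.15, POLR1E, the partner of POLR1G, at 0.20, POLR1F, of the stalk, at -0.23 and POLR1H, which takes part in RNA cleavage, at 0.37, the last on 62 and 75 counts in sgMETTL13 and 46 and 33 counts in sgControl. Within libraries, the log2 ratio of POLR1D to POLR1C was -0.40 and -0.47 in sgMETTL13, against -0.07 and 0.26 in sgControl. The log2 ratio of POLR1G to POLR1E was 1.85 and 1.58 in sgMETTL13, against 2.20 and 2.57 in sgControl. The arms did not overlap in either ratio. With 2 libraries per arm the smallest two-sided exact permutation p is 0.333, so neither difference can pass a test. Ratios of partners, here and below, come from the same counts as the fold changes. They restate those changes and add no separate evidence.

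Among the 4 box C/D snoRNP proteins of the set, RRP9 was lower (25% of them, background 12.0%). None was higher (background 8.94%), and the core proteins FBL, NOP56 and NOP58 did not pass. The core protein SNU13, which is outside the set, was higher (log2 fold change 0.63, given in the closing section). RRP9, which binds the U3 snoRNA that the small subunit processome is built on, had 78.8 and 76.5 CPM in sgMETTL13, against 103 and 129 CPM in sgControl (log2 fold change -0.58, SE 0.141, edgeR adjusted p = 0.00432). It lost its call without sgMETTL13 replicate 2 (adjusted p = 0.0748) and without sgControl replicate 2 (0.0927). FBL, the methyltransferase fibrillarin, had 939 and 891 CPM in sgMETTL13 and 1082 and 1177 CPM in sgControl, with no overlap of the arms and a log2 fold change of -0.30 (adjusted p = 0.0609). Its scaffold proteins NOP56 and NOP58 had log2 fold changes of -0.13 and 0.25.

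The box H/ACA proteins held 1 higher gene of 3 (33.3%, background 8.94%) and none lower (0%, background 12.0%). With so few genes a single call sets that share. NOP10, a small protein that binds the pseudouridine synthase dyskerin, had 55.3 and 71.8 CPM in sgMETTL13, against 49.2 and 35.9 CPM in sgControl (log2 fold change 0.57, SE 0.165, edgeR adjusted p = 0.0145). The call was lost without sgMETTL13 replicate 2 (adjusted p = 0.312) and without sgControl replicate 2 (0.211). DKC1, which encodes dyskerin, had a log2 fold change of 0.26, and NHP2, another core protein, one of -0.22, neither past the test.

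Of 21 small subunit processome genes, 4 were higher (19.0%, background 8.94%), 3 were lower (14.3%, background 12.0%) and 14 did not pass the test, and the median log2 fold change was -0.05. UTP15 and NOL11 belong to the UTP-A complex, which also takes part in transcription of the ribosomal RNA precursor. UTP15 (chr5:73565741-73583380) had 47.4 and 59.0 CPM in sgMETTL13, against 37.3 and 27.4 CPM in sgControl (log2 fold change 0.71, SE 0.167, edgeR adjusted p = 0.00333). NOL11 had 168 and 171 CPM in sgMETTL13, against 116 and 120 CPM in sgControl (log2 fold change 0.52, SE 0.130, adjusted p = 0.00492). UTP4 of the same complex did not pass at 0.21, and the log2 ratio of UTP15 to UTP4 was 0.64 and 0.81 in sgMETTL13, against 0.24 and 0.21 in sgControl. The other higher genes were UTP11 and RRP36, with log2 fold changes of 0.56 and 0.43.

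The lower processome genes were NOP9, UTP23 and NOL10. NOP9, which binds the 18S precursor, had 20.4 and 15.7 CPM in sgMETTL13, against 22.4 and 32.5 CPM in sgControl (log2 fold change -0.59, SE 0.195, edgeR adjusted p = 0.0315). UTP23, known from yeast to act with a snoRNA needed for early cuts, had 24.5 and 28.7 CPM in sgMETTL13 and 44.8 and 29.6 CPM in sgControl (-0.50, SE 0.180, adjusted p = 0.0462). NOL10 had a log2 fold change of -0.43 (SE 0.131, adjusted p = 0.0193). All 7 processome calls were lost without sgMETTL13 replicate 2, at adjusted p of 0.0826 to 0.436. Without sgControl replicate 2, NOL11 (0.0146) and UTP23 (0.00198) passed, whereas UTP15 (0.062), UTP11 (0.165), RRP36 (0.265), NOP9 (0.425) and NOL10 (0.196) did not. UTP23 also missed without sgMETTL13 replicate 1 (0.249) and without sgControl replicate 1 (0.615), and RRP36 without sgMETTL13 replicate 1 (0.0505).

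Late 40S maturation had 3 lower genes of 7 (42.9%, background 12.0%) and none higher (0%, background 8.94%). Its 7 log2 fold changes were negative, with a median of -0.29. BYSL, a factor that stays on the 40S precursor until late, had 98.96 and 93.97 CPM in sgMETTL13, against 128 and 164 CPM in sgControl (log2 fold change -0.59, SE 0.140, edgeR adjusted p = 0.0032). RRP12, which takes part in export of the precursor from the nucleus, had 217 and 192 CPM in sgMETTL13, against 269 and 329 CPM in sgControl (-0.55, SE 0.131, adjusted p = 0.00355). NOB1, the endonuclease that makes the 3′ end of 18S RNA, had 60.05 and 51.3 CPM in sgMETTL13, against 71.3 and 90.8 CPM in sgControl (-0.54, SE 0.151, adjusted p = 0.0116). In each of the 3 genes the arms did not overlap. All 3 lost their call without sgMETTL13 replicate 2 (adjusted p of 0.0669, 0.123 and 0.218) and without sgControl replicate 2 (0.0807, 0.0603 and 0.184).

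Assembly of the 60S subunit held 8 lower genes of 19 (42.1%, background 12.0%). Of its 19 genes 1 was higher (5.26%, background 8.94%) and 10 did not pass, and the median log2 fold change was -0.19. BOP1, a scaffold of the complex that PES1 and WDR12 complete, had 221 and 196 CPM in sgMETTL13, against 327 and 430 CPM in sgControl (log2 fold change -0.86, SE 0.135, edgeR adjusted p = 5.48e-05). RRS1, which helps bring the 5S RNA and its proteins into the particle, had 169 and 175 CPM in sgMETTL13, against 273 and 342 CPM in sgControl (-0.83, SE 0.131, adjusted p = 5.93e-05). RRP1 (chr21:43789577-43805293), a factor of the early 60S precursor, had 192 and 165 CPM in sgMETTL13, against 275 and 319 CPM in sgControl (-0.73, SE 0.130, adjusted p = 0.000235). GRWD1 (chr19:48445983-48457022), known as a chaperone of the ribosomal protein RPL3, had 129 and 111 CPM in sgMETTL13, against 166 and 226 CPM in sgControl (-0.70, SE 0.144, adjusted p = 0.000894).

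PES1, NOP16, RRP8 and NOP2 were the other lower 60S genes. PES1 had 224 and 201 CPM in sgMETTL13, against 279 and 344 CPM in sgControl (log2 fold change -0.55, SE 0.130, edgeR adjusted p = 0.00321). NOP16, a nucleolar 60S factor, had a log2 fold change of -0.58, RRP8, a methyltransferase of 28S RNA, one of -0.45, and NOP2, another methyltransferase of 28S RNA, one of -0.39. All 4 missed the threshold without sgMETTL13 replicate 2 (adjusted p of 0.106 for PES1, 0.135 for NOP16, 0.237 for RRP8 and 0.32 for NOP2). Without sgControl replicate 2, PES1 (0.0603), RRP8 (0.302) and NOP2 (0.225) missed it, and without sgMETTL13 replicate 1, RRP8 (0.12) and NOP2 (0.0706) did. RRP15, a maturation factor, was the higher one (log2 fold change 0.47, SE 0.136, adjusted p = 0.0129), and it missed without sgMETTL13 replicate 2 (0.22) and without sgControl replicate 2 (0.186).

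WDR12, the partner of PES1 and BOP1, did not pass the test. It had 70.3 and 86.5 CPM in sgMETTL13 and 73.9 and 52.8 CPM in sgControl, with overlapping arms and a log2 fold change of 0.30. The log2 ratio of BOP1 to WDR12 within libraries was 1.65 and 1.179 in sgMETTL13, against 2.15 and 3.03 in sgControl. The log2 ratio of BOP1 to PES1, both lower, was -0.02 and -0.04 in sgMETTL13, against 0.23 and 0.32 in sgControl. The arms did not overlap in either ratio, with an exact two-sided permutation p of 0.333, the smallest possible with 2 libraries per arm. Both ratios come from the same counts as the fold changes and restate them.

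Of the 2 nucleolar chaperones, NPM1 was higher and NCL did not pass the test. NPM1 (chr5:171387116-171410900), nucleophosmin, a histone and ribosome chaperone of the granular nucleolus, had 476 and 542 CPM in sgMETTL13, against 326 and 260 CPM in sgControl. Its log2 fold change was 0.80 (SE 0.130, edgeR adjusted p = 9.37e-05), the highest of the 64 genes. RefSeq lists 50 numbered pseudogenes of NPM1, and whether the counting took reads that fit several places is not given in the sources used here, so its level is uncertain. NCL (chr2:231453531-231464484), nucleolin, an RNA-binding protein of the nucleolus, had 8630 and 7944 CPM in sgMETTL13 and 8934 and 10299 CPM in sgControl (log2 fold change -0.21, adjusted p = 0.191). The log2 ratio of NPM1 to NCL was -4.18 and -3.87 in sgMETTL13, against -4.78 and -5.31 in sgControl.

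**Figure D3:**
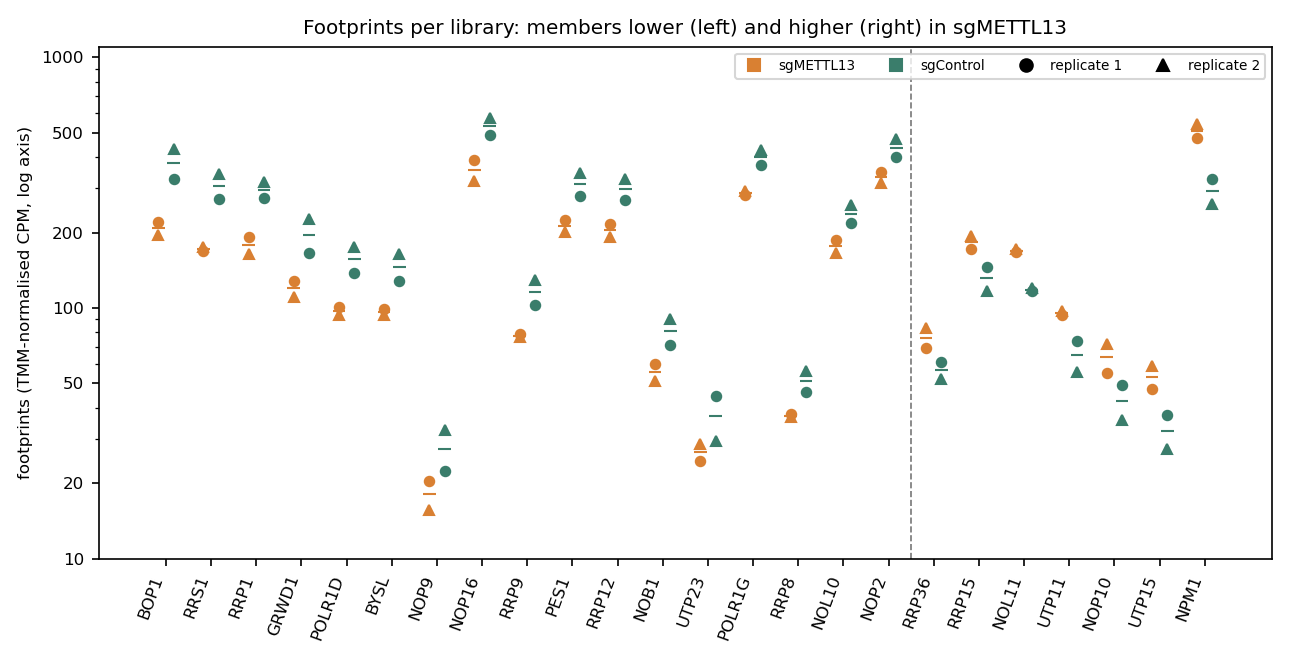
TMM-normalised footprint CPM (log axis) in each library for the 17 genes lower and the 7 genes higher in sgMETTL13, with circles for replicate 1, triangles for replicate 2 and dashes for the arm mean. The sgControl triangle lies above the circle in 16 of the 17 lower genes and below it in 6 of the 7 higher genes.

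The sgControl footprint replicates differed from each other in the direction of most calls. Replicate 2 was above replicate 1 in 16 of the 17 lower genes, UTP23 being the exception, and below it in 6 of the 7 higher genes, NOL11 being the exception. The same held for all genes: replicate 2 was above replicate 1 in 1196 of 1287 lower genes (92.9%) and below it in 853 of 958 higher genes. Over all tested genes replicate 2 was above in 50.3%, and over the 64 genes in 44. The part of this difference between sgControl libraries in the calls was not tested. Both the difference and the fold change are computed from the sgControl libraries.

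**Figure D4:**
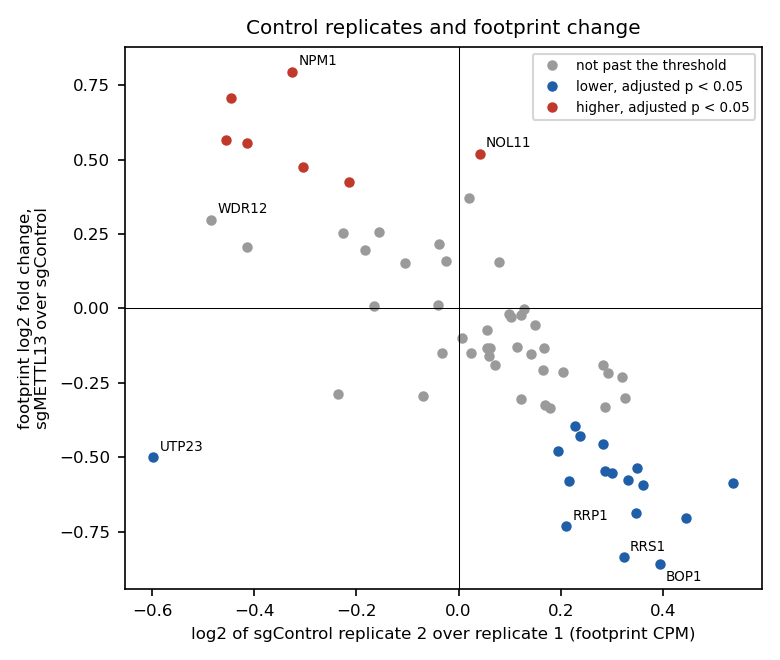
Footprint log2 fold change, sgMETTL13 over sgControl, against the log2 ratio of sgControl replicate 2 to replicate 1, for the 64 genes; both axes use the sgControl values. UTP23 is the blue point on the left, and NOL11 the red point right of 0.

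In mRNA no gene of the set passed the test, and none of all 12468 tested genes did (0% higher and 0% lower; edgeR). At an unadjusted p below 0.05 there were 0 ribosome biogenesis genes and 100 genes in all (0.802%), and DESeq2 called 0 genes. The median log2 fold change was 0.00 for the 63 genes tested and 0.04 for all genes. The genes with the smallest p were POLR1F, LTV1 and UTP18. POLR1F had 113 and 30.3 CPM of mRNA in sgMETTL13 and 38.2 and 31.7 CPM in sgControl (log2 fold change 1.04, SE 0.548, edgeR unadjusted p = 0.0827, adjusted p = 1.00). LTV1, an adaptor of 40S export, had 52.0 and 16.9 CPM in sgMETTL13 and 24.9 and 18.0 CPM in sgControl, and UTP18, of the processome, had 89.6 and 42.0 CPM in sgMETTL13 and 46.9 and 44.4 CPM in sgControl. In all 3 the high value came from sgMETTL13 RNA replicate 1, and without it their log2 fold changes were -0.14, -0.28 and -0.05.

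Both sgMETTL13 libraries lay above both sgControl libraries in mRNA for 1 of the 63 genes (1.59%, background 5.11%) and below both for 4 (6.35%, background 6.84%). BOP1 had 166 and 250 CPM of mRNA in sgMETTL13 and 221 and 212 CPM in sgControl, with overlapping arms. RRS1 had 104.9 and 102.9 CPM of mRNA in sgMETTL13, against 122.7 and 105.1 CPM in sgControl. NPM1 had 1890 and 706 CPM of mRNA in sgMETTL13 and 1126 and 877 CPM in sgControl, so that both sgControl libraries lay between the sgMETTL13 ones. With a coefficient of biological variation of 0.337 in mRNA, against 0.0992 in footprints, a change of the size seen in footprints could be missed in mRNA.

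Without sgMETTL13 RNA replicate 2, the arm rested on replicate 1. The median mRNA log2 fold change was then -0.10 for the set and -0.02 for all genes tested. POLR1F, LTV1 and UTP18 stood at 1.69, 1.27 and 0.97 in that fit. With any other RNA library left out, the median lay between -0.04 and 0.14 for the set, and between 0.01 and 0.09 for all genes.

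**Figure D5:**
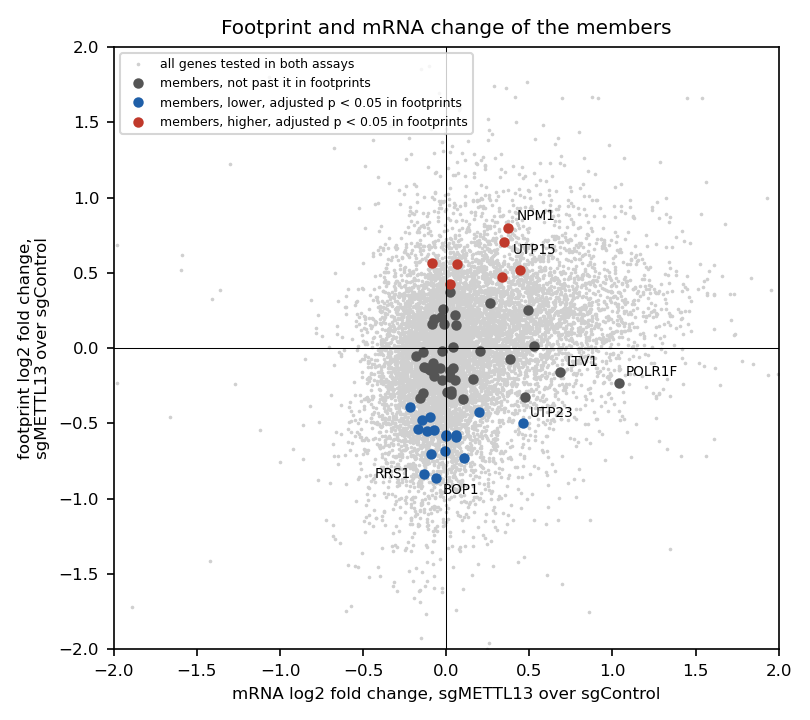
Footprint log2 fold change against mRNA log2 fold change, sgMETTL13 over sgControl, for the ribosome biogenesis genes (large points) and all genes tested in both assays (small points); both axes end at 2 and -2, so more extreme genes are not drawn. BOP1 and RRS1 sit at -0.86 and -0.83 in footprints near 0 in mRNA, and POLR1F is farthest right at 1.04.

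Translational efficiency, the change of footprints relative to mRNA in one model of all 8 libraries, was called for 0 of the 63 genes and for 0 of 10446 genes (0% in each direction; edgeR). At an unadjusted p below 0.05 there were 0 ribosome biogenesis genes and 347 genes in all (3.32%), and DESeq2 called 5 genes, 0 of them in the set. The median log2 change was -0.17 for the set and -0.11 for all genes. UTP3 had the smallest p, with a log2 change of -0.79 (SE 0.356, edgeR unadjusted p = 0.0536), followed by RRS1 (-0.69, unadjusted p = 0.058) and BOP1 (-0.79, unadjusted p = 0.0669). All 3 had an adjusted p of 0.999. For UTP3 the footprint log2 fold change was -0.32 (edgeR adjusted p = 0.0631) and that of mRNA 0.48. Its mRNA level was 71.4 and 58.6 CPM in sgMETTL13, against 55.1 and 38.3 CPM in sgControl. Without sgMETTL13 RNA replicate 1, BOP1, BYSL and RRP1 were lower and NPM1 and UTP15 higher, in a fit that called 500 of 10463 genes. Without sgMETTL13 RNA replicate 2, LTV1, NOL10, NOL8, POLR1F, UTP18 and UTP23 were lower and NOP10 higher, in a fit that called 1384 of 10464 genes, so that no gene of the set was called in both fits.

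The genes differed widely in footprints per mRNA. The ratio of footprint CPM to mRNA CPM in sgControl had a median of 1.80 over 63 genes, against 0.868 over all 10446 genes. Of the 63, 52 lay above that general median. The 63 genes had a median sgControl footprint level of 157 CPM, against 24.6 CPM for all genes, and 61 lay above that level. The footprint level is the numerator of the ratio, and ratios were not compared at matched levels. LTV1 had ratios of 6.42 and 18.3 in sgMETTL13 and 14.2 and 20.4 in sgControl. UTP3, a processome factor, had 5.14 and 5.34 in sgMETTL13, against 7.27 and 11.8 in sgControl. At the low end, NHP2 had ratios of 0.0746 and 0.0566 in sgMETTL13 and 0.0674 and 0.0788 in sgControl. IMP3, a small protein of the U3 particle, had 0.249 and 0.251 in sgMETTL13 and 0.214 and 0.259 in sgControl. RefSeq lists 2 numbered pseudogenes for each of NHP2 and IMP3. How reads that fit several places were counted is not given, and its part in these low ratios was not tested. These ratios compare shares of 2 kinds of library and are not numbers of ribosomes per mRNA.

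UTP14C was counted in footprints but not in mRNA. It had 302 and 228 footprint counts in sgMETTL13 and 221 and 171 in sgControl, and 0 counts in all 4 RNA libraries. By counting error alone, 0 counts allow up to 0.144 CPM in the shallowest. ABCF1, AATF and CLIC1, outside the set, were likewise tested in footprints but not in mRNA. How RNA reads that fit several places were counted is not given, and its part in the 0 was not tested. UTP14C is known as a retrotransposed copy of UTP14A, a processome factor. The log2 footprint ratio of UTP14C to UTP14A was -2.20 and -2.39 in sgMETTL13 and -2.32 and -2.35 in sgControl, with overlapping arms. Whether the short footprints of these near-identical genes were shared between them was not tested, and the UTP14C level is uncertain.

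A list of 104 other genes of the pathway, such as initiation factors of RNA polymerase I, further processome proteins, 60S factors and the exosome, was tested in the same fit. In it 13 genes were higher (12.5%) and 17 lower (16.3%), against 8.94% and 12.0% of all tested genes, with a median log2 fold change of 0.01. By smallest p the higher ones were POLR2H (log2 fold change 0.91), a subunit shared by the nuclear RNA polymerases, RIOK2 (0.69), a kinase of late 40S particles, and KRR1 (0.62), a processome protein. The lower ones were SURF6 (-0.94), a nucleolar factor of both subunits, SENP3 (-0.84), a SUMO protease of 60S maturation, and DDX54 (-0.80), a nucleolar RNA helicase. These 6 kept their call whichever footprint library was left out.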

How the data were processed

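The authors deposited a table of raw counts by gene symbol, with 8 libraries in 4 groups of 2 assigned by the labels. RNA libraries were stranded and poly(A)-selected, per the labels' protocols, and footprints were pulled down with a puromycin analog. HISAT2 2.0.4, Bowtie 1.2.2, cutadapt 1.18, UMI-tools, featureCounts and hg38 are named per the submitters' processing notes. Their order, the annotation, the strand setting and the treatment of multi-mapping reads are not given in the sources used here.

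Counts were fitted with edgeR 4.0.16 in R 4.3.3 (TMM, default filterByExpr, quasi-likelihood F test), on footprints and on RNA apart. Translational efficiency was the interaction of assay and guide in one model. P-values were adjusted by Benjamini-Hochberg over all genes tested, with a threshold of 0.05. The SE of a log2 fold change was taken as its size divided by the root of the F statistic. Alternatives were DESeq2 1.42.0, other size factors, no filter, a replicate block, all 8 libraries in one model, and each library left out. A count of 0 allows up to 3 counts, and such limits cover counting error only.

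The members and lists were chosen with earlier results of these data known. Genes were named by rule: all RNA polymerase I subunits, the best known snoRNP, 60S and chaperone genes, up to 4 called genes per role and direction by smallest p, the 3 smallest p in mRNA and efficiency, the extreme footprint to mRNA ratios, and up to 3 called genes per direction of the other pathway list. NOP16, RRP8, NOP2, UTP4, UTP20, TSR2 and the genes of the closing section were named after their values were seen. Same-numbered libraries of the arms deviated with a correlation of -0.20 in footprints and 0.41 in mRNA, so the numbers were not taken as pairs.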

Additional observations from a re-analysis of the deposited data

How the results depend on the processing

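The median footprint log2 fold change of the 64 genes lay between -0.19 and -0.10 under every alternative. With DESeq2, other size factors, library totals without TMM or no filter, the counts of called genes among the 64 and the 104 stayed within 1.5 times those reported. Calls of single genes were less stable than these counts. Over all 11 alternatives, left-out libraries included, UTP23 and RRP8 kept their footprint call in 4 and RRP36 in 5. NOP9, NOP2 and SNU13 kept theirs in 6. Over all genes DESeq2 called 1465 in footprints, 597 of them higher, against 2245 and 958 with edgeR. In one model of all 8 libraries, 0 of the 64 genes were higher and 0 lower in footprints, and 0 and 0 of the 104 other pathway genes. Leaving out one footprint library at a time gave 1 to 9 higher and 5 to 22 lower of the 64 genes, and 3 to 18 higher and 7 to 22 lower of the 104. Leaving out one RNA library gave 0 to 10 genes higher in mRNA and 0 lower, and, with footprint libraries left out too, 0 to 2 higher and 0 to 6 lower in efficiency. The mRNA log2 fold changes ran over these fits from -0.14 to 1.69 for POLR1F, from -0.28 to 1.27 for LTV1 and from -0.054 to 0.97 for UTP18. The genes of the set called higher in mRNA all came from the fit without sgMETTL13 RNA replicate 2, whose sgMETTL13 arm rested on replicate 1. Genes outside the set were widely called higher in that fit too, so these calls are not particular to the set. With the replicate block, 6 of the 64 genes were higher and 13 lower in footprints, and 8 and 14 of the 104. Same-numbered footprint libraries of the arms deviated with a correlation of -0.20, and same-numbered mRNA libraries with one of 0.41, so a pairing by number is not shown across assays. In mRNA the block called 0 genes. A crossed pairing, added after seeing the data, called 10 higher and 21 lower of the 64. Over all genes the block called 1729 and the crossed pairing 3220, against 2245 without a block. Depth limits the genes with the fewest footprints, down to 33 counts for POLR1H.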

Other observations

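Several partners of the ribosome biogenesis genes, taken from the other pathway list after their values were seen, had footprint changes of their own. RPF2, the partner of RRS1 in bringing in the 5S particle, had 14.8 and 19.4 CPM in sgMETTL13, against 11.01 and 7.18 CPM in sgControl (log2 fold change 0.88, SE 0.226, edgeR adjusted p = 0.00599). The log2 ratio of RRS1 to RPF2 was 3.51 and 3.17 in sgMETTL13, against 4.63 and 5.57 in sgControl. RPF2 missed the threshold without sgMETTL13 replicate 2 (adjusted p = 0.118) and without sgControl replicate 2 (0.0963). NAF1, an assembly factor of box H/ACA particles, had 38.2 and 39.0 CPM in sgMETTL13, against 24.9 and 24.3 CPM in sgControl (log2 fold change 0.65, adjusted p = 0.00504), and missed without sgMETTL13 replicate 2 (0.0583).

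SNU13, the protein that nucleates box C/D particles, had 14.8 and 21.4 CPM in sgMETTL13, against 10.9 and 12.6 CPM in sgControl (log2 fold change 0.63, edgeR adjusted p = 0.0345). It missed without sgMETTL13 replicate 2 (0.5) and without sgControl replicate 1 (0.118). TCOF1, the treacle protein that helps RNA polymerase I transcription, had 857 and 772 CPM in sgMETTL13, against 1091 and 1328 CPM in sgControl (-0.57, adjusted p = 0.00153), and missed without sgMETTL13 replicate 2 (0.0823). NOLC1, a snoRNP chaperone that binds treacle, had 1276 and 1173 CPM in sgMETTL13, against 1552 and 1922 CPM in sgControl (-0.50, adjusted p = 0.00394). It missed without sgMETTL13 replicate 2 (0.131) and without sgControl replicate 2 (0.0682).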
